A study of Homo sapiens with 9 samples.

Results

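The 10 genes described here encode the core of the NF-kappaB pathway: the subunits RELA, RELB, REL, NFKB1 and NFKB2, the inhibitor and feedback genes NFKBIA, NFKBIE and TNFAIP3, and the ubiquitin ligases BIRC2 and BIRC3. They were chosen by name for their place in the pathway, with earlier results of these data known, so their calls are no unbiased sample. All 10 were found among the 58735 genes of the count table. RNA was sequenced in bulk from SKOV3, a human ovarian cancer cell line, in 3 groups of 3 libraries. Total counts per library ranged from 18169050 to 29320184.

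Cells of the WT CDK9 group expressed wild-type CDK9, the kinase of the elongation factor P-TEFb, and received no inhibitor. Cells of the ALK inhibitor group expressed the same WT CDK9 and were treated for 24 h with an inhibitor of the receptor tyrosine kinase ALK, whose name and dose for this experiment are not given in the sources used here. Cells of the Tyr19Phe CDK9 group expressed CDK9 with phenylalanine in place of tyrosine 19, which removes a site that can be phosphorylated. The study describes stable lines in which CDK9 was put back into cells depleted of their own, but the labels of these libraries say only which CDK9 was expressed. How many clones each line held and which promoter drove the introduced gene are not given in the sources used here, so a difference between the lines and a difference made by the substitution cannot be told apart. Growth in the same medium with serum was common to all groups, and no NF-kappaB stimulus such as TNF is named in the labels.

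CDK9 itself was at 48.4, 49.7 and 47.6 CPM (counts scaled to library size with TMM factors) in the WT CDK9 libraries, 43.8, 47.3 and 45.7 CPM with the ALK inhibitor and 52.4, 53.1 and 59.5 CPM in Tyr19Phe CDK9 cells. The Tyr19Phe CDK9 libraries were the highest and the groups did not overlap, but the difference from WT CDK9 did not pass the threshold of an adjusted p under 0.05 (log2 fold change 0.18, SE 0.0761, adjusted p = 0.106 by edgeR's quasi-likelihood test with Benjamini-Hochberg adjustment). Set directly against inhibitor cells, CDK9 was called higher in Tyr19Phe CDK9 cells (0.27, adjusted p = 0.00961). Counts do not separate introduced from endogenous CDK9 RNA. Labels do not say that the 3 libraries of a group came from separate cultures, so p-values measure the spread between these samples, which may be technical.

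Epithelial markers were present, with KRT7 at 1620 CPM and PAX8 at 270 CPM in WT CDK9 cells, although CDH1 was at 0.526 CPM in them. Of the 9 markers, KRT8 (log2 fold change 0.38) and KRT18 (0.39) were called higher and KRT19 (−1.24), EPCAM (−0.82), ERBB2 (−0.29) and CD24 (−0.27) lower in Tyr19Phe CDK9 than in WT CDK9 cells, and with the inhibitor KRT19 (0.21) and ERBB2 (0.54) were called higher and KRT7 (−0.35) and CD24 (−0.48) lower, each at an adjusted p under 0.05. All 6 leukocyte and all 4 fibroblast markers had means under 1 CPM, and LYZ was at 0 in every library. The 3 endothelial markers were also under 1 CPM each, and their summed level was 0.154, 0.317 and 0.641 CPM in the WT CDK9 libraries, 0.0475, 0.549 and 0.0517 CPM with the inhibitor and 1.05, 1.39 and 1.06 CPM in Tyr19Phe CDK9 cells. CDH5 was at 0 in the WT CDK9 libraries and at a mean of 0.787 CPM in Tyr19Phe CDK9 cells, VWF was at means of 0.284 and 0.378 CPM in these groups, and PECAM1 was at 0 in Tyr19Phe CDK9 cells. The part of these transcripts in the results was not tested. In bulk RNA, fewer cells that express a gene and less of its RNA per cell cannot be told apart.

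A pair of libraries stood apart from their groups. ALK inhibitor library 2 had a count for 19944 genes, where libraries 1 and 3 had 21911 and 21915, and lay apart on the second principal component. Tyr19Phe CDK9 library 3 had a count for 20635 genes, where libraries 1 and 2 had 22609 and 22744, and the highest share of mitochondrial counts at 3.12%. Fits were repeated with each library left out and with this pair left out together.

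NF-kappaB is a family of dimeric transcription factors that wait in the cytoplasm bound to IkappaB proteins, and the precursors made from NFKB1 and NFKB2 are themselves inhibitors until they are processed. In the canonical branch, signals from TNF, interleukin-1 or Toll-like receptors activate the IKK complex, IkappaB is degraded, and dimers such as RELA with the NFKB1 product enter the nucleus. In the noncanonical branch, the kinase NIK, encoded by MAP3K14, drives processing of the NFKB2 product, which pairs with RELB, while TRAF2, TRAF3 and the BIRC2 and BIRC3 proteins keep NIK low. Several of the genes that NF-kappaB turns on, NFKBIA and TNFAIP3 among them, switch the pathway off again, and in ovarian cancer cells the pathway is known for driving cytokines such as IL6 and CXCL8.

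Promoters are shown because several of these genes are known targets of the factors they encode. RefSeq promoter windows on GRCh38.p14, each 250 bases before to 50 after an annotated start, were matched by symbol for 8 of the 10 genes. RELB and NFKBIE had no entry. The kappaB consensus, searched on both strands with overlapping matches counted as 1, occurred in the windows of 6 genes: REL, NFKB1, NFKB2, NFKBIA, TNFAIP3 and BIRC3. It was not found in the 2 windows of RELA or the 2 of BIRC2. Of all 35116 windows of the table, 11.3% held a match, as did at least 1 window of 17.3% of the tested genes that had one. In the stretches that follow, capitals mark the matches.
TNFAIP3, chr6:137867147-137867213, plus strand: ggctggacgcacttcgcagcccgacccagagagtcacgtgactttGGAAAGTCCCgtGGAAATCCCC
NFKBIA, chr14:35404776-35404875, minus strand: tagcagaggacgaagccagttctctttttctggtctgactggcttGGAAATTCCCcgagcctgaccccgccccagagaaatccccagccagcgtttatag
NFKB1, chr4:102501265-102501329, plus strand: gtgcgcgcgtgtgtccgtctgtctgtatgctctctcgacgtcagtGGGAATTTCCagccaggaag
NFKB2, chr10:102395484-102395693, plus strand: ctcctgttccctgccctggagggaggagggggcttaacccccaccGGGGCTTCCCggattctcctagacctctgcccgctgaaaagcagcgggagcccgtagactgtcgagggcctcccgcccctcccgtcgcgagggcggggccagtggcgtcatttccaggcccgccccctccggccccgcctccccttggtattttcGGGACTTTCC
BIRC3, chr11:102317240-102317403, plus strand: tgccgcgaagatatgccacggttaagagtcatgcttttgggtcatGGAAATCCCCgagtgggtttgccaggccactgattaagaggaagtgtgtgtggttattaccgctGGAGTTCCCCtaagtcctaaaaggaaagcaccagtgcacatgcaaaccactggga

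TNFAIP3 had its matches 67 to 58 and 55 to 46 bases before the start. The NFKBIA match lay 81 to 72 bases before the start and that of NFKB1 49 to 40 bases before. The NFKB2 stretch belongs to the last of 3 annotated starts and ends with a match 21 to 12 bases before it, and the BIRC3 matches began 199 and 135 bases before. A match is a description of the letters, and binding was not measured here.

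**Figure D1:**
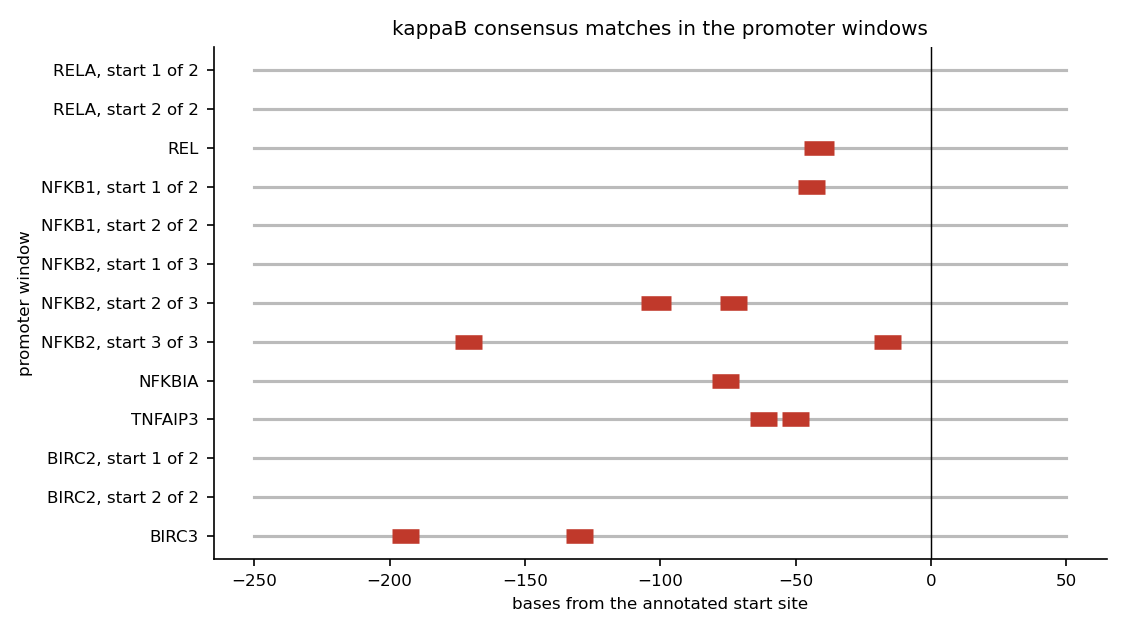
Position of kappaB consensus matches (red) in each 300-base promoter window (grey line) of the 8 genes with an entry, in bases from the annotated start site, with 1 row per annotated start. TNFAIP3, NFKB2 and BIRC3 each have windows with 2 matches, and RELA and BIRC2 have none.

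Levels can be compared between genes only per length, so CPM was divided by the listed gene length in kilobases. Which transcripts of each gene were expressed was not examined, so the order depends on the listed lengths. In WT CDK9 cells BIRC2 was the most abundant at 53.4 ± 2.60 CPM per kilobase (mean ± s.d., n = 3), followed by RELA at 27.2 ± 0.847 and NFKBIA at 22.4 ± 1.92. NFKB1 at 13.9 ± 0.506 stood above NFKB2 at 10.8 ± 0.299 and RELB at 8.57 ± 0.657. The lowest levels were those of NFKBIE at 3.58 ± 0.518, TNFAIP3 at 1.97 ± 0.110, REL at 1.81 ± 0.0589 and BIRC3 at 1.12 ± 0.224 CPM per kilobase. Neighbours in this order did not overlap between libraries, except TNFAIP3 and REL. With the ALK inhibitor the order was the same but for REL and TNFAIP3, which overlapped again. In Tyr19Phe CDK9 cells NFKB2, at 14.7 ± 0.313 CPM per kilobase, stood above NFKB1, at 12.4 ± 0.496, and the ranges of these did not overlap, while those of NFKBIE and TNFAIP3 did.

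**Figure D2:**
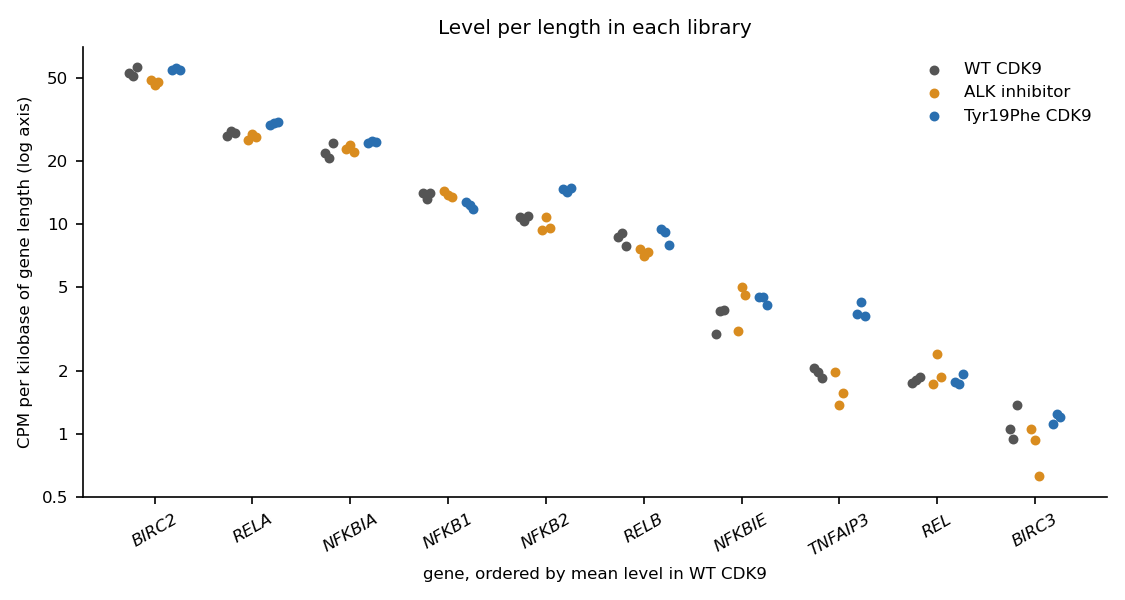
Level of each gene in CPM per kilobase of gene length on a log axis, with 1 point per library (3 per group) and genes ordered by their mean in WT CDK9 cells. NFKB2 lies below NFKB1 in WT CDK9 and ALK inhibitor libraries and above it in Tyr19Phe CDK9 libraries.

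All 10 genes passed the filter on low counts and were tested among 16350 genes, with a call at an adjusted p under 0.05. With the ALK inhibitor, 0 of the 10 were called higher than in WT CDK9 cells (1.82% of all tested genes were called higher) and 1, BIRC2, was called lower (2.73% of all tested genes). No gene of the 10 was higher with an unadjusted p under 0.05 in edgeR, nor called higher by DESeq2. In Tyr19Phe CDK9 cells, 3 of the 10 were called higher than in WT CDK9 cells, RELA, NFKB2 and TNFAIP3 (7.61% of all tested genes), and 0 were called lower (10.4% of all tested genes). At an unadjusted p under 0.05 edgeR gave 1 lower gene, NFKB1, and DESeq2 called 0. Set directly against the ALK inhibitor group, Tyr19Phe CDK9 cells had 4 of the 10 called higher, RELA, NFKB2, TNFAIP3 and BIRC2 (9.57% of all tested genes), and 1 called lower, NFKB1 (11.1% of all tested genes).

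Over the 10 genes the log2 fold changes had a median of −0.09 for the inhibitor, 0.12 for Tyr19Phe CDK9 and 0.21 in the direct comparison, and that of all tested genes was 0.00 in each. Both comparisons with WT CDK9 use the same 3 control libraries, so the direct comparison is the test of whether their effects differ. Under scaling by library size alone, the 297 higher and 447 lower calls of the inhibitor comparison became 406 higher and 344 lower, and the 1245 higher and 1695 lower calls of Tyr19Phe CDK9 against WT CDK9 became 1544 higher and 1451 lower. Without WT CDK9 library 1 those of the inhibitor comparison were 198 higher and 293 lower.

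**Figure D3:**
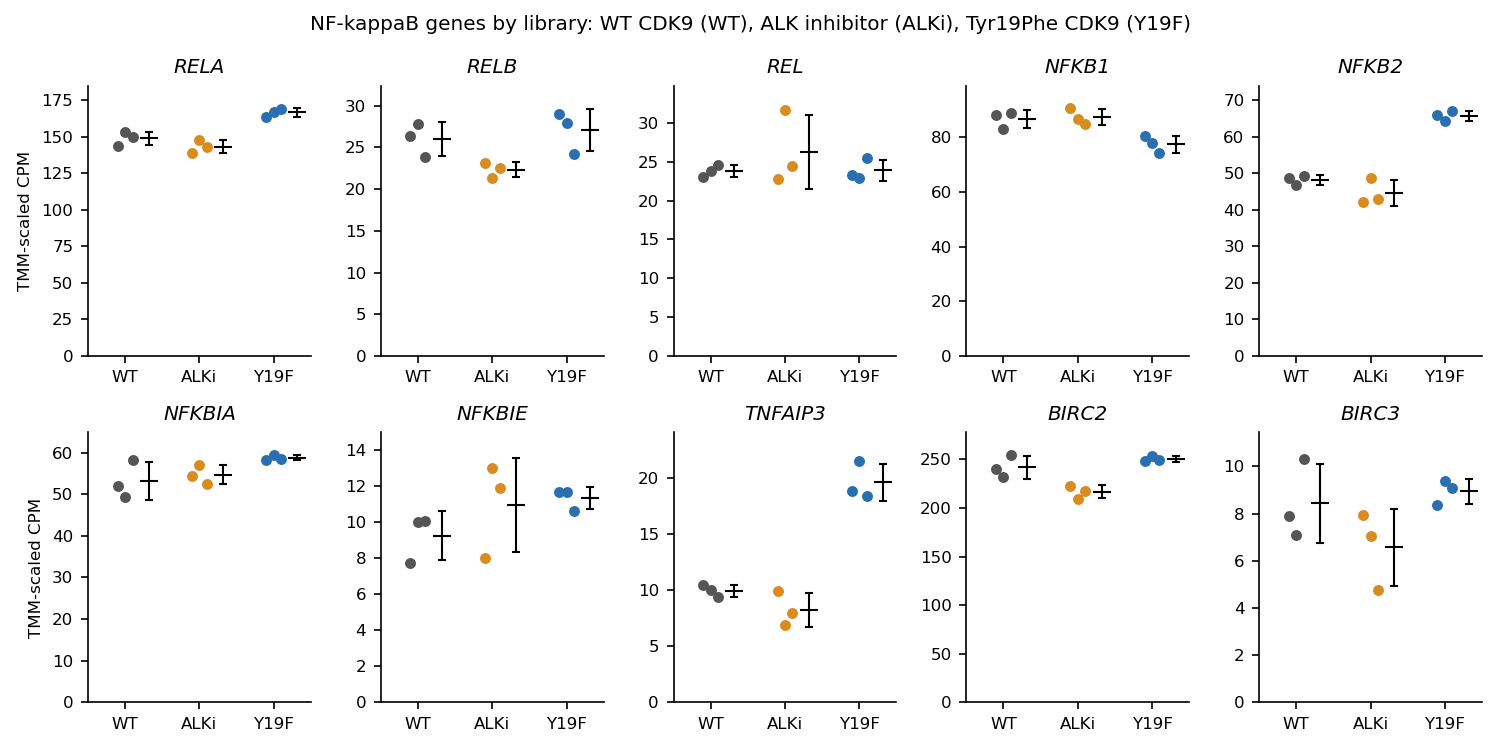
TMM-scaled CPM of each gene in every library, with points for the 3 libraries of a group and black bars for the mean ± s.d., on axes that start at 0. TNFAIP3 and NFKB2 are higher in all 3 Tyr19Phe CDK9 libraries than in any other library.

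Among the subunits of the noncanonical branch, NFKB2, which encodes p100 and its processed form p52, was at 48.6, 46.7 and 49.3 CPM in WT CDK9 cells, 42.1, 48.6 and 42.9 CPM with the ALK inhibitor and 66.0, 64.2 and 67.0 CPM in Tyr19Phe CDK9 cells. All 3 Tyr19Phe CDK9 libraries were above the other 6, whereas inhibitor and WT CDK9 libraries overlapped. NFKB2 was 1.36-fold higher in Tyr19Phe CDK9 than in WT CDK9 cells (log2 fold change 0.45, SE 0.0745, edgeR adjusted p = 3.52e-05). Over all 19 alternative analyses its log2 fold change stayed between 0.43 and 0.47 and it was called in each. For NFKB2 the inhibitor gave −0.12 on the log2 scale (95% interval −0.27 to 0.04, adjusted p = 0.547, and −0.18 without ALK inhibitor library 2 and −0.07 without library 1), and the direct difference between the groups was 0.56 (SE 0.0748, adjusted p = 7.99e-07).

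RELB, the partner of p52, was at 26.4, 27.8 and 23.8 CPM in WT CDK9 cells, 23.1, 21.4 and 22.5 CPM with the inhibitor and 28.95, 28.0 and 24.2 CPM in Tyr19Phe CDK9 cells. The 3 inhibitor libraries were the lowest of the 9, and Tyr19Phe CDK9 and WT CDK9 libraries overlapped. The inhibitor difference was not called (log2 fold change −0.22, 95% interval −0.44 to −0.00267, adjusted p = 0.323 by edgeR), nor was that of Tyr19Phe CDK9 (0.06, 95% interval −0.15 to 0.27, adjusted p = 0.782, and 0.14 without Tyr19Phe CDK9 library 3 and 0.0013 without WT CDK9 library 3). In the direct comparison RELB was 0.28 higher on the log2 scale in Tyr19Phe CDK9 cells with an adjusted p of 0.0585. It was called in 4 of 19 alternatives, those with upper quartile scaling, with at least 10 counts in every library, with protein-coding genes only and without Tyr19Phe CDK9 library 3 (0.35, edgeR adjusted p = 0.0283), within a range of 0.0283 to 0.215.

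Of the canonical subunits, RELA, the p65 protein with a strong activation domain, was at 144, 153 and 149 CPM in WT CDK9 cells, 139, 148 and 143 CPM with the inhibitor and 163, 167 and 169 CPM in Tyr19Phe CDK9 cells. The Tyr19Phe CDK9 libraries were the 3 highest, and the other groups overlapped. The rise over WT CDK9 was small, 1.12-fold (log2 fold change 0.16, SE 0.0486, edgeR adjusted p = 0.0167). It was no longer called without WT CDK9 library 1 (log2 fold change 0.14, adjusted p = 0.0961) or without Tyr19Phe CDK9 library 3 (0.16, adjusted p = 0.0512), nor without that library and ALK inhibitor library 2 together (adjusted p = 0.0502), within a range of 0.00483 to 0.0961 over the alternatives. A long noncoding gene on the opposite strand overlaps RELA by 9 bases, and its counts came to 1.17% of those of RELA. The inhibitor difference was −0.06 (95% interval −0.16 to 0.04, and −0.03 without ALK inhibitor library 1 and −0.08 without WT CDK9 library 1), and Tyr19Phe CDK9 cells were 0.22 higher than inhibitor cells (adjusted p = 0.00119), a call made under all 19 alternatives.

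NFKB1, the source of p105 and p50, was at 88.1, 83.1 and 88.9 CPM in WT CDK9 cells, 90.6, 86.7 and 84.7 CPM with the inhibitor and 80.4, 77.8 and 74.2 CPM in Tyr19Phe CDK9 cells. All 3 Tyr19Phe CDK9 libraries were below the other 6, but the difference from WT CDK9 missed the threshold (log2 fold change −0.16, SE 0.0614, edgeR adjusted p = 0.0646). Against inhibitor cells it was −0.17 and called (adjusted p = 0.0418). That call held in 9 of 19 alternatives, with adjusted p between 0.032 and 0.215. It was lost without WT CDK9 library 1 (0.0578), ALK inhibitor library 1 (0.169), 2 (0.0765) or 3 (0.0577), or Tyr19Phe CDK9 library 2 (0.0914) or 3 (0.183), and without ALK inhibitor library 2 and Tyr19Phe CDK9 library 3 together (0.215).

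The chromosomal surroundings differed between these genes. In Tyr19Phe CDK9 against WT CDK9 cells, the 37 other tested genes within 5 Mb of NFKB1 on chromosome 4 had log2 fold changes with a median of −0.22, and 43.2% of them were at or above NFKB1. For TNFAIP3 the median over 33 neighbours was 0.01 and 6.06% were at or above it, and for NFKB2 the median over 90 was 0.10 and 16.7% were at or above it. RELA had 234 neighbours with a median of 0.07, of which 32.5% were at or above it. Whether gene copy number differs between the lines was not tested.

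REL, the c-Rel subunit best known from lymphocytes, was at 23.1, 23.9 and 24.6 CPM in WT CDK9 cells, 22.7, 31.7 and 24.5 CPM with the inhibitor and 23.3, 22.9 and 25.5 CPM in Tyr19Phe CDK9 cells. Inhibitor library 2 was high and all other values overlapped. The log2 fold change was 0.14 with the inhibitor (95% interval −0.09 to 0.37), −0.01 without that library, and 0.00 with Tyr19Phe CDK9 (95% interval −0.23 to 0.23).

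The balance of the precursor genes followed from these values. The ratio of NFKB2 to NFKB1, each per length, was 0.770, 0.785 and 0.774 in WT CDK9 cells, 0.648, 0.782 and 0.707 with the inhibitor and 1.15, 1.15 and 1.26 in Tyr19Phe CDK9 cells. All Tyr19Phe CDK9 libraries were above 1 and all others below it. Crossing 1 depends on the listed lengths: in CPM, not divided by length, NFKB2 stayed below NFKB1 in Tyr19Phe CDK9 cells (means of 65.7 and 77.5). A two-sided exact permutation test gave p = 0.1 for Tyr19Phe CDK9 against WT CDK9, the smallest value 3 against 3 libraries allow. Full separation of the groups fixes that value, so the test adds nothing to the separation itself. Of the summed level of the 5 subunits, NFKB1 made up 22.3% ± 0.942 in WT CDK9 and 18.1% ± 0.578 in Tyr19Phe CDK9 cells, and NFKB2 17.3% ± 0.572 and 21.5% ± 0.556 (s.d., n = 3). RELA held the largest share in both, 43.8% ± 1.03 and 44.7% ± 1.14.

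**Figure D4:**
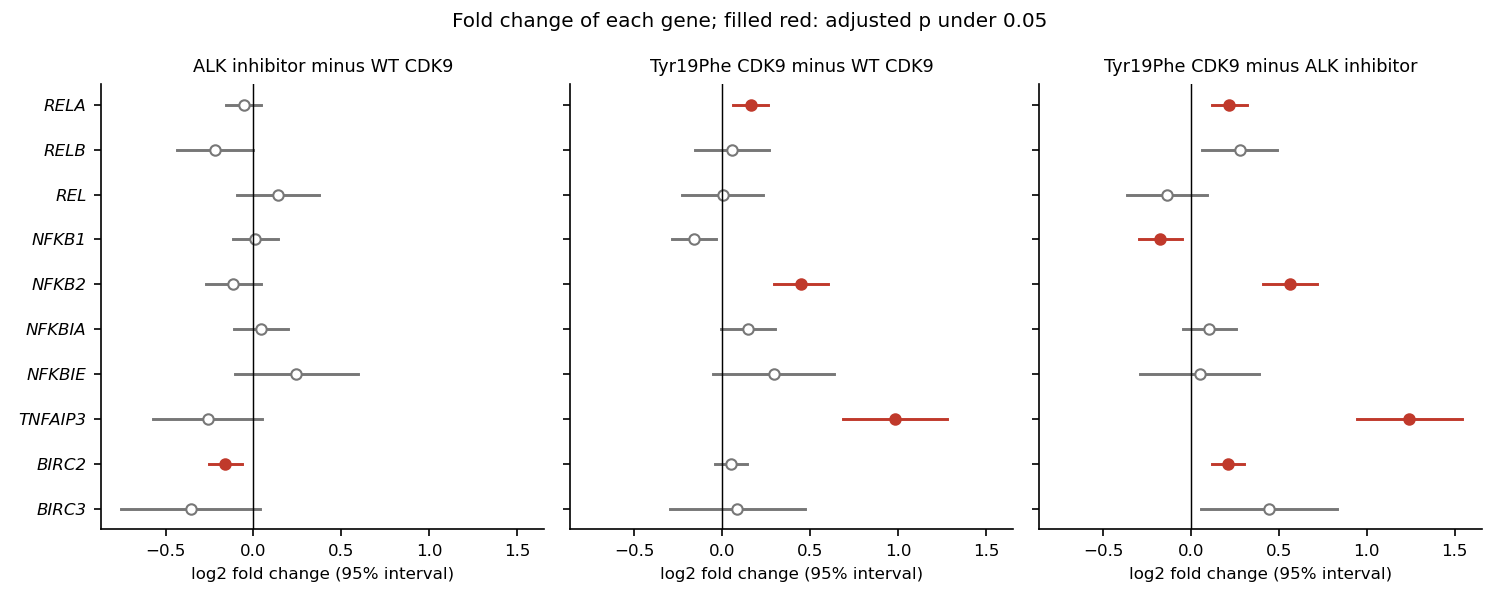
Log2 fold change of each gene with its 95% interval in the 3 comparisons, filled red where the adjusted p was under 0.05. TNFAIP3, NFKB2 and RELA lie to the right of 0 in both Tyr19Phe CDK9 comparisons, and BIRC2 is the only call of the inhibitor comparison.

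Among the inhibitors and feedback genes, TNFAIP3 showed the largest difference of the 10 in both Tyr19Phe CDK9 comparisons, though not with the inhibitor. It encodes A20, a ubiquitin-editing enzyme that shuts down signalling from TNF and Toll-like receptors, and its promoter stretch above holds 2 kappaB matches. TNFAIP3 was at 10.5, 9.97 and 9.35 CPM in WT CDK9 cells, 9.92, 6.92 and 7.96 CPM with the inhibitor and 18.9, 21.5 and 18.4 CPM in Tyr19Phe CDK9 cells. Every Tyr19Phe CDK9 library was above the other 6, while inhibitor and WT CDK9 libraries overlapped. The rise over WT CDK9 was 1.97-fold (log2 fold change 0.98, SE 0.145, edgeR adjusted p = 5.31e-06), and 5.35% of the tested genes had a larger absolute change. Its log2 fold change was between 0.91 and 1.03 over the 19 alternatives, called in each. With the inhibitor it was −0.26 (95% interval −0.57 to 0.05, adjusted p = 0.459, and −0.15 without ALK inhibitor library 2 and −0.41 without library 1), and the direct difference was 1.24 (SE 0.147, adjusted p = 9.4e-08).

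An antisense gene, AL357060.1, overlaps TNFAIP3 by 1046 bases, and strand use in the counting is not given in the sources used here. It had 9, 1 and 5 counts in the WT CDK9 libraries, 7, 0 and 3 with the inhibitor and 28, 5 and 45 in Tyr19Phe CDK9 cells. TNFAIP3 itself had 204, 189 and 175 counts, 209, 126 and 154 counts and 557, 605 and 488 counts in the same order, so that the antisense count was largest beside that of TNFAIP3 in Tyr19Phe CDK9 library 3, at 45 to 488.

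NFKBIA, which encodes IkappaB-alpha, the fast feedback inhibitor, was at 51.9, 49.3 and 58.2 CPM in WT CDK9 cells, 54.4, 57.1 and 52.5 CPM with the inhibitor and 58.3, 59.5 and 58.6 CPM in Tyr19Phe CDK9 cells. The Tyr19Phe CDK9 libraries were the 3 highest by a narrow margin over WT CDK9 library 3. The difference was not called (log2 fold change 0.15, 95% interval −0.01 to 0.30, edgeR adjusted p = 0.191), and with the inhibitor it was 0.04 (95% interval −0.11 to 0.20). The level of TNFAIP3 relative to NFKBIA, per length, was 0.0884 ± 0.0112 in WT CDK9, 0.0713 ± 0.0143 with the inhibitor and 0.157 ± 0.0119 in Tyr19Phe CDK9 cells (s.d., n = 3).

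NFKBIE, which encodes IkappaB-epsilon, was at 7.70, 9.97 and 10.1 CPM in WT CDK9 cells, 8.02, 13.0 and 11.9 CPM with the inhibitor and 11.7, 11.7 and 10.6 CPM in Tyr19Phe CDK9 cells. Tyr19Phe CDK9 values lay above those of WT CDK9, and inhibitor values spanned both. Neither difference from WT CDK9 was called, with log2 fold changes of 0.29 in Tyr19Phe CDK9 cells (95% interval −0.05 to 0.64, edgeR adjusted p = 0.26) and 0.24 with the inhibitor (95% interval −0.11 to 0.59). The former was 0.18 without WT CDK9 library 1 and 0.36 without library 3, and the latter was 0.11 without ALK inhibitor library 2 and 0.43 without library 1.

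The ubiquitin ligases cIAP1 and cIAP2, encoded by the neighbouring paralogs BIRC2 and BIRC3 on chromosome 11, act at the TNF receptor and in the turnover of NIK. As paralogs they may share some reads, so their values carry that uncertainty. BIRC2 was at 240, 232 and 255 CPM in WT CDK9 cells, 223, 210 and 218 CPM with the inhibitor and 249, 254 and 249 CPM in Tyr19Phe CDK9 cells. The 3 inhibitor libraries were the lowest, and Tyr19Phe CDK9 and WT CDK9 libraries overlapped. BIRC2 was 0.16 lower on the log2 scale with the inhibitor, at a log2 fold change of −0.16 (SE 0.0451, edgeR adjusted p = 0.034).

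That call was lost without WT CDK9 library 1 (adjusted p = 0.101), WT CDK9 library 3 (log2 fold change −0.12, adjusted p = 0.258), or ALK inhibitor library 1 (0.0511), 2 (0.203) or 3 (0.0902), and with scaling by the upper quartile (0.0517) or library size alone (0.096). The range of the adjusted p over the 19 alternatives was 0.0102 to 0.258. In Tyr19Phe CDK9 against WT CDK9 cells the BIRC2 log2 fold change was 0.05 (95% interval −0.04 to 0.14, and 0.02 without WT CDK9 library 2 and 0.09 without library 3), and against inhibitor cells it was 0.21 (SE 0.0447, adjusted p = 0.000763 by edgeR), called under all 19 alternatives.

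BIRC3, a known NF-kappaB target, was at 7.90, 7.07 and 10.3 CPM in WT CDK9 cells, 7.93, 7.03 and 4.75 CPM with the inhibitor and 8.36, 9.40 and 9.09 CPM in Tyr19Phe CDK9 cells. The groups overlapped against WT CDK9, and inhibitor library 3 was the lowest. The log2 fold change was −0.36 with the inhibitor (95% interval −0.75 to 0.04, edgeR adjusted p = 0.40) and 0.09 with Tyr19Phe CDK9 (95% interval −0.30 to 0.47), and the direct difference of 0.44 had an adjusted p of 0.0996. Without ALK inhibitor library 3 the inhibitor value was −0.17 and the direct difference 0.26, without ALK inhibitor library 1 they were −0.52 and 0.61, and without WT CDK9 library 3 the inhibitor value was −0.18.

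Genes with a pattern most like each of the 10 were sought by Pearson correlation of log2 CPM over the 9 libraries, over the 11140 genes whose mean level reached 5 CPM. These libraries form 3 groups, so r mostly carries differences between groups, and it is given as a description. Many genes shared these patterns: r was at least 0.9 for 252 genes with TNFAIP3, 234 with NFKB2, 203 with RELA and 171 with NFKB1. TNFAIP3 was most like RBCK1 (r = 0.996), HDAC7 (0.989) and PPP1R13L (0.988). NFKB2 was most like TGIF1 (0.986), TMEM223 (0.981) and PHLDB2 (0.981), and RELA like TUBB6 (0.991), ADRA1B (0.98) and RHOG (0.97). HIPK1 (0.987), ERMP1 (0.982) and PCDHB7 (0.969) came nearest to NFKB1. For NFKBIA these were ST5 (0.951), CXCL8 (0.924) and CUL9 (0.919), so that a chemokine gene of the target list was among its nearest.

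Of the other 5 genes, RELB was nearest to SAPCD2 (r = 0.938), CCDC107 (0.937) and ACOT9 (0.926), and REL to ATF7 (0.966), HEATR6 (0.963) and STX8 (0.942). NFKBIE was nearest to BST2 (0.955), DNAJC4 (0.935) and WDSUB1 (0.933). BIRC2 was nearest to AC006058.4 (0.956), ENC1 (0.954) and MUC20-OT1 (0.952), and BIRC3 to NOTCH1 (0.936), LINC01291 (0.923) and NUP214 (0.922).

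Other genes of the pathway were taken from lists of 112 genes, also chosen with earlier results of these data known, of which 92 passed the filter. Against WT CDK9, 4 were called higher (4.35% of those tested, and 1.82% of all tested genes) and 1 lower (1.09% and 2.73%) with the inhibitor, and 21 higher (22.8% and 7.61%) and 10 lower (10.9% and 10.4%) in Tyr19Phe CDK9 cells. Without WT CDK9 library 1 the inhibitor gave 2 higher and 0 lower, and the lower count was also 0 without WT CDK9 library 2 or ALK inhibitor library 2 and 2 without ALK inhibitor library 1 or 3 or Tyr19Phe CDK9 library 2. The median over the lists was 0.02 on the log2 scale for the inhibitor and 0.09 for Tyr19Phe CDK9.

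**Figure D5:**
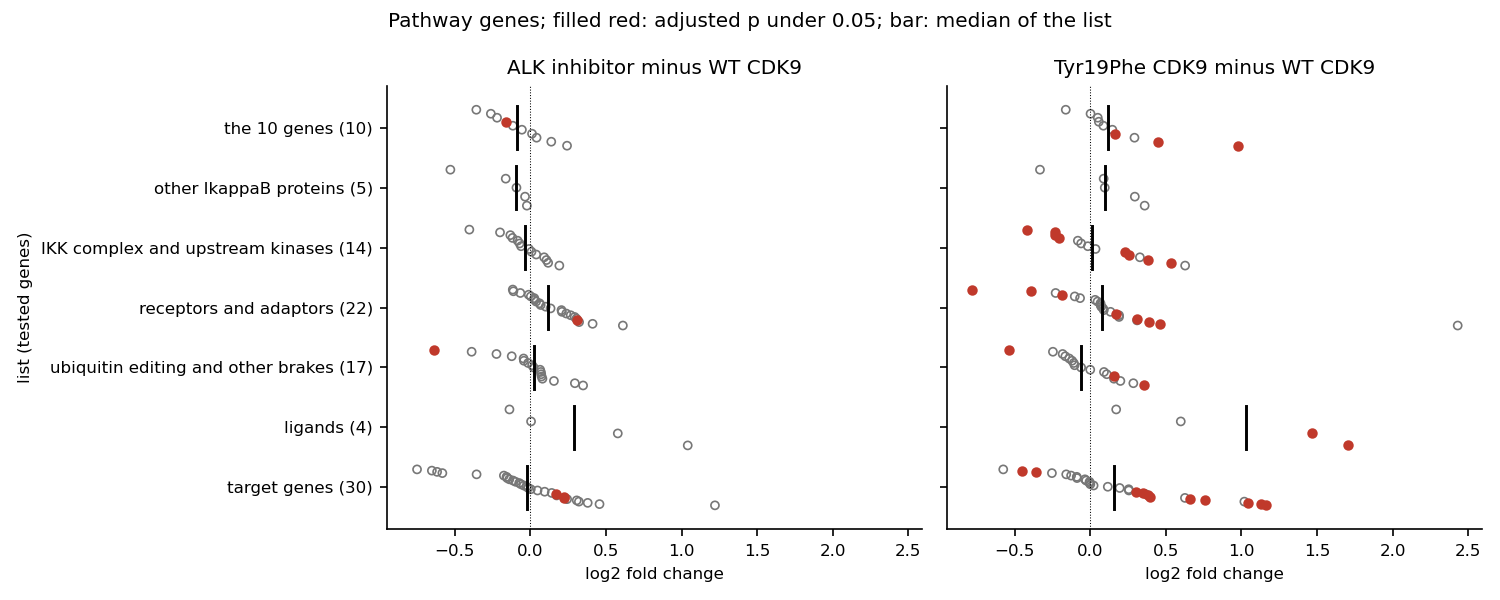
Log2 fold change of each tested gene of the pathway lists against WT CDK9, filled red where the adjusted p was under 0.05, with a black bar at the median of each list. Calls with the ALK inhibitor are few, and in Tyr19Phe CDK9 cells the target genes include 9 higher and 2 lower calls.

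Of 43 target genes of NF-kappaB, 30 were tested, and in Tyr19Phe CDK9 cells 9 were called higher (30% of those tested, and 7.61% of all tested genes) and 2 lower (6.67% and 10.4%). PLAU, the urokinase gene, was at 252, 269 and 245 CPM in WT CDK9 cells, 279, 292 and 289 CPM with the inhibitor and 334, 332 and 334 CPM in Tyr19Phe CDK9 cells. The 3 groups did not overlap, and PLAU rose in Tyr19Phe CDK9 cells (log2 fold change 0.38, edgeR adjusted p = 2.91e-08) and with the inhibitor (0.17, adjusted p = 0.0144). The inhibitor call for PLAU was lost without WT CDK9 library 1 (log2 fold change 0.16, adjusted p = 0.0804) or 3 (0.14, 0.103) or ALK inhibitor library 2 (0.16, 0.0743) or 3 (0.16, 0.066). IER3, a stress response gene, also rose in both, by 0.35 (adjusted p = 5.93e-06) and 0.22 (adjusted p = 0.00797), the latter with an adjusted p of 0.0504 without WT CDK9 library 1.

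Of the other target genes higher in Tyr19Phe CDK9 cells, TAP1, a peptide transporter, was at 35.1, 34.9 and 32.2 CPM in WT CDK9 cells and 55.0, 55.8 and 50.6 CPM in Tyr19Phe CDK9 cells, without overlap (log2 fold change 0.66, SE 0.0883, edgeR adjusted p = 1.05e-06). CXCL8 was at 9.13, 5.49 and 12.0 CPM and 15.9, 23.2 and 20.4 CPM in the same groups, also without overlap (1.16, SE 0.196, adjusted p = 4.4e-05). IL6 was at 6.11, 5.44 and 7.75 CPM in WT CDK9 cells, 4.18, 2.58 and 5.48 CPM with the inhibitor and 13.2, 14.5 and 12.1 CPM in Tyr19Phe CDK9 cells. The Tyr19Phe CDK9 libraries were the 3 highest for IL6, with a log2 fold change of 1.04 (SE 0.197, adjusted p = 0.000191). CXCL8 and IL6 lie outside the naming rule of the lists, as do the last 4 higher genes, PSMB9 (1.13), IL32 (0.76), GADD45B (0.39) and CXCL1 (0.30), and were named after their values were seen. The CXCL1 call was lost without WT CDK9 library 2, with an adjusted p of 0.0652. The cytokine genes CXCL2 (0.12, adjusted p = 0.913), CXCL3 (−0.00459, 0.997), LIF (−0.04, 0.747) and CSF1 (−0.13, 0.164) of the same list were tested and not called, and these too were named after their values were seen.

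The 2 target genes lower in Tyr19Phe CDK9 cells were SDC4, a cell surface proteoglycan, at a log2 fold change of −0.36 (edgeR adjusted p = 1.77e-07), and BMP2, a growth factor, at −0.45 (adjusted p = 0.00353). Of the target genes not tested, CCL2, CXCL5, CXCL6, CSF3 and VCAM1 had no count in any library, which with 3 counts as the floor allows up to 0.165 CPM in the shallowest library (counting error only). A kappaB match was present in a window of 18 of the 32 target genes with an entry (56.2%, and 17.3% of all tested genes with one). Whether the called target genes were those with a match was not examined. The same share over tested genes was 21.1% for those called higher and 20.6% for those called lower in Tyr19Phe CDK9 cells.

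Among 14 kinases and partners of the IKK complex, 4 were higher (28.6% of them, and 7.61% of all tested genes) and 4 lower (28.6% and 10.4%) in Tyr19Phe CDK9 cells and 0 were called with the inhibitor, where edgeR gave 0 higher and 2 lower at an unadjusted p under 0.05 and DESeq2 called 0 higher and 1 lower. MAP3K14, which encodes NIK, was at 113, 123 and 119 CPM in WT CDK9 cells, 109, 103 and 97.1 CPM with the inhibitor and 86.8, 94.7 and 84.4 CPM in Tyr19Phe CDK9 cells. The 3 groups did not overlap. MAP3K14 was lower in Tyr19Phe CDK9 cells (log2 fold change −0.42, SE 0.0605, edgeR adjusted p = 3.85e-06), and the inhibitor difference of −0.20 had an adjusted p of 0.053. NFKB2 RNA was thus higher in the cells in which RNA of the kinase that drives processing of its product was lower.

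TAB2 (log2 fold change −0.24, edgeR adjusted p = 0.00155) and MAP3K7, the TAK1 kinase (−0.21, adjusted p = 0.0103), were also lower, and TAB1, another TAK1 partner, was higher (0.38, adjusted p = 0.00374). IKBKB, the catalytic IKK-beta subunit, was 0.26 higher (adjusted p = 0.0144). The call for MAP3K7 was lost without WT CDK9 library 1 (adjusted p = 0.0564) or Tyr19Phe CDK9 library 2 (0.0705), and that for IKBKB without WT CDK9 library 2 (0.0934) or Tyr19Phe CDK9 library 3 (0.0649). IKBKG, the regulatory subunit NEMO, was called higher (0.54, adjusted p = 0.0188), but its groups overlapped, and it was not called without Tyr19Phe CDK9 library 3 (log2 fold change 0.30, adjusted p = 0.265) or WT CDK9 library 3 (0.40, adjusted p = 0.134). IKBKG has a close pseudogene copy, so its counts are uncertain. MAP3K3 (0.23, adjusted p = 0.0431) and TAB3 (−0.23, adjusted p = 0.0225) were the last of the 8 and were named after their values were seen. MAP3K3 was not called without WT CDK9 library 1 (adjusted p = 0.16) or 3 (0.0908), ALK inhibitor library 3 (0.0508) or Tyr19Phe CDK9 library 1 (log2 fold change 0.14, adjusted p = 0.326), nor TAB3 without WT CDK9 library 3 (0.17) or Tyr19Phe CDK9 library 2 (0.199).

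Receptors and adaptors gave 4 higher calls (18.2%, and 7.61% over all tested genes) and 3 lower (13.6% and 10.4%) among 22 tested genes in Tyr19Phe CDK9 cells. TRAF2, which recruits BIRC2 and BIRC3, was higher (log2 fold change 0.39, edgeR adjusted p = 0.00617), as were TRADD (0.46, adjusted p = 0.029) and IL1RAP (0.31, adjusted p = 0.0394). For TRADD the WT CDK9 and Tyr19Phe CDK9 libraries overlapped. TLR2 fell from 9.02 ± 1.01 CPM in WT CDK9 to 5.24 ± 0.250 CPM in Tyr19Phe CDK9 cells (−0.78, adjusted p = 0.000938), and IL1R1 (−0.40, adjusted p = 0.01) and TRAF3 (−0.19, adjusted p = 0.0171) were lower. The last of the 4 higher genes, TNFRSF10B (0.17, adjusted p = 0.0432), was named after its value was seen.

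Several of these receptor and adaptor calls were lost when 1 of several libraries was left out, and the values without each are log2 fold changes with the edgeR adjusted p. TRADD was not called without WT CDK9 library 2 (0.29, 0.223) or Tyr19Phe CDK9 library 1 (0.43, 0.091) or 2 (0.39, 0.138). IL1RAP was not called without WT CDK9 library 1 (0.35, 0.0566) or 2 (0.23, 0.193) or Tyr19Phe CDK9 library 1 (0.20, 0.269) or 3 (0.32, 0.0707). IL1R1 was not called without WT CDK9 library 1 (−0.36, 0.0592) or 3 (−0.33, 0.0712) or Tyr19Phe CDK9 library 2 (−0.30, 0.1), and TRAF3 not without WT CDK9 library 2 (−0.17, 0.0796) or Tyr19Phe CDK9 library 1 (−0.15, 0.104) or 3 (−0.17, 0.081). TNFRSF10B was not called without WT CDK9 library 2 (0.16, 0.0954) or 3 (0.15, 0.142), ALK inhibitor library 3 (0.17, 0.0518) or Tyr19Phe CDK9 library 1 (0.18, 0.0661) or 3 (0.13, 0.199). TRAF2 and TLR2 were called with each of the 9 libraries left out.

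With the inhibitor, 1 gene of this list was called higher (4.55%, and 1.82% of all tested genes). TNFRSF1A, the main TNF receptor, was at 71.4, 70.6 and 66.6 CPM in WT CDK9 cells, 87.5, 84.6 and 86.6 CPM with the inhibitor and 73.5, 72.6 and 67.2 CPM in Tyr19Phe CDK9 cells. The 3 inhibitor libraries were the highest of the 9 (log2 fold change 0.31, SE 0.0646, edgeR adjusted p = 0.00206). In Tyr19Phe CDK9 cells the log2 fold change was 0.03, and the direct difference was called at −0.28 (adjusted p = 0.00146).

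Of 17 genes for ubiquitin editing and other brakes, RBCK1 and TNIP1 were higher (11.8%, and 7.61% of all tested genes) and PDLIM2 was lower (5.88% and 10.4%) in Tyr19Phe CDK9 cells. RBCK1, a subunit of the linear ubiquitin ligase LUBAC, was at 102, 100.1 and 99.0 CPM in WT CDK9 cells, 97.3, 86.9 and 91.7 CPM with the inhibitor and 129, 131 and 126 CPM in Tyr19Phe CDK9 cells. Like TNFAIP3 it was highest in the 3 Tyr19Phe CDK9 libraries (log2 fold change 0.36, SE 0.0559, edgeR adjusted p = 1.34e-05). TNIP1, which binds A20, differed by 0.15 (adjusted p = 0.0471), and it was not called without WT CDK9 library 1 (0.0969), 2 (0.119) or 3 (0.0757), ALK inhibitor library 3 (0.0501) or Tyr19Phe CDK9 library 2 (0.146) or 3 (0.0885), with a call in 10 of the 19 alternatives. PDLIM2, a nuclear ligase for RELA, was lower with the inhibitor (−0.64, adjusted p = 0.0288) and in Tyr19Phe CDK9 cells (−0.54, adjusted p = 0.0267). The inhibitor call for PDLIM2 was lost without WT CDK9 library 1 (0.0762), 2 (0.0944) or 3 (0.0666) or ALK inhibitor library 2 (log2 fold change −0.40, adjusted p = 0.223). Its Tyr19Phe CDK9 call was lost without WT CDK9 library 1 (0.0601), 2 (0.0783) or 3 (0.0622) or Tyr19Phe CDK9 library 1 (0.0748) or 3 (0.0867).

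Ligand genes were low, and 4 of 10 were tested. In Tyr19Phe CDK9 cells 2 were called higher (50%, and 7.61% of all tested genes), TNFSF10 from 0.79 ± 0.205 to 2.58 ± 1.04 CPM (log2 fold change 1.70, edgeR adjusted p = 0.00522) and IL1A from 0.925 ± 0.499 to 2.57 ± 0.310 CPM (1.46, adjusted p = 0.0189). TNFSF10 was not called without Tyr19Phe CDK9 library 1 (adjusted p = 0.0683), and IL1A not without WT CDK9 library 1 (0.0554) or 3 (0.108) or Tyr19Phe CDK9 library 2 (0.0786). TNF itself was at 2.38 CPM in WT CDK9 and 3.61 CPM in Tyr19Phe CDK9 cells and was not called (0.60, 95% interval −0.00264 to 1.20, adjusted p = 0.175). No ligand was called with the inhibitor, where edgeR gave 1 higher at an unadjusted p under 0.05 and DESeq2 called 0.

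The 5 other IkappaB genes had no call against WT CDK9. With Tyr19Phe CDK9, edgeR gave 1 higher and 0 lower at an unadjusted p under 0.05 and DESeq2 called 0, and with the inhibitor these were 0 higher and 1 lower, and 0. BCL3, a nuclear partner of p50 and p52, differed by 0.29 on the log2 scale between Tyr19Phe CDK9 and WT CDK9 cells (edgeR adjusted p = 0.0904). Set against inhibitor cells directly, NFKBIZ (0.26, adjusted p = 0.00899) and BCL3 (0.33, adjusted p = 0.0491) were called higher in Tyr19Phe CDK9 cells (40% of the list, and 9.57% of all tested genes), where DESeq2 called 1 and the groups overlapped for BCL3. These names were chosen after their values were seen.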

How the data were processed

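SKOV3 RNA was sequenced in 3 groups of 3 libraries, grouped by the deposited labels. Per the submitters' processing notes, reads were handled with CASAVA, HISAT2 2.0.5 and featureCounts 1.5.0-p3 on GRCh38. The authors deposited whole-number counts per gene, without normalization. Strandedness and annotation release are not given in the sources used here.

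The analysis used edgeR 4.0.16 in R 4.3.3. Of all genes, 16350 passed filterByExpr (minimum count 10, minimum total 15). After TMM scaling, all 9 libraries entered 1 quasi-likelihood fit with a coefficient for each group (6 residual degrees of freedom), and the Benjamini-Hochberg method adjusted p-values over every tested gene. Code was tested on simulated data. DESeq2 1.42.0, other scalings and filters, a replicate block, fits of the compared groups or protein-coding genes alone and each library left out were alternatives. Log2 CPM used a prior count of 2. Promoter sequences came from RefSeq. Where a symbol had several entries, that with most counts was used.

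Libraries of a group differed by more than sampling noise. The named genes are all 10 members, up to 3 called genes with the smallest adjusted p per pathway list, direction and comparison with WT CDK9, the 3 genes most like each member, and CDK9. The members and lists were chosen with earlier results of these data known.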

Additional observations from a re-analysis of the deposited data

How the results depend on the processing

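Over the 10 genes, 19 alternatives and 3 comparisons, the direction and side of the threshold were kept in 177 of 190 analyses for the ALK inhibitor against WT CDK9, 183 of 190 for Tyr19Phe CDK9 against WT CDK9 and 174 of 190 for the direct comparison. TNFAIP3 and NFKB2 were called higher in Tyr19Phe CDK9 cells under all 19, RELA under 16. With 3 libraries per group, leaving 1 out also lowers the number of samples, and other causes of lost calls were not tested.

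With the inhibitor, the count of lower calls among the 10, 1, became 0 with upper quartile scaling and with library size alone, and was 0 to 1 with each library left out. In the direct comparison the number called lower, 1, became 0 with upper quartile scaling, with no filter beyond 1 count and with only the compared groups, and was 0 to 1 with each library left out. Without ALK inhibitor library 2 and Tyr19Phe CDK9 library 3 together, an alternative added after the data had been seen, both numbers were 0.

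Pathway list genes called lower with the inhibitor, 1, became 2 without a filter beyond 1 count, with at least 10 counts in every library, with only the compared groups and with protein-coding genes only, 3 with DESeq2, 0 without the pair of libraries named above, and 0 to 2 with each library left out. Those called higher ranged from 2 to 4 with the inhibitor and from 11 to 19 in the direct comparison with each library left out, the lowest without WT CDK9 library 1 and without ALK inhibitor library 3, respectively. All calls of the inhibitor comparison, 744, ranged from 491, without WT CDK9 library 1, to 738 with each library left out, and from 730, with upper quartile scaling, to 847, with DESeq2, in the alternatives that kept all libraries.

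With each library left out, uncalled log2 fold changes crossed 0 for REL (−0.012 to 0.24 with the inhibitor, −0.041 to 0.036 with Tyr19Phe CDK9, −0.23 to 0.017 in the direct comparison), NFKB1 (−0.016 to 0.032) and NFKBIA (−0.0066 to 0.11) with the inhibitor, BIRC3 with Tyr19Phe CDK9 (−0.021 to 0.26) and NFKBIE in the direct comparison (−0.13 to 0.19). REL was also at −0.012 and −0.041 against WT CDK9 without the pair of libraries.

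A replicate block gave 2 pathway list genes called lower with the inhibitor in place of 1 and changed no call among the 10 genes. With the block, 818 genes were called for the inhibitor (744 in the main fit) and 3076 for Tyr19Phe CDK9 against WT CDK9 (2940). The direct comparison had 3465 calls (3387). Correlations of the deviations of same-numbered libraries from their group means lay between −0.0116 and 0.026. They were taken over all tested genes, weakly counted ones included, so they cannot decide whether the libraries were paired.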
